A study of Mus musculus with 22 samples.

Results

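Ribosome-bound RNA of noradrenergic cells was compared between mice infused with hTyr and mice infused with EYFP, over all 12596 genes of the deposited table. The comparison used the 11 immunoprecipitated (IP) libraries of a series of 22: 5 from hTyr animals (IP_501, IP_502, IP_508, IP_509 and IP_510) and 6 from EYFP animals (IP_504, IP_505, IP_506, IP_507, IP_511 and IP_512), each animal being called here by the label of its IP library. The remaining 11 libraries are input, RNA of the same animals taken before the immunoprecipitation and labelled as total hindbrain. hTyr is the usual abbreviation of human tyrosinase, the enzyme that starts melanin synthesis from tyrosine, and EYFP is a yellow fluorescent protein that served as the control. All animals, controls included, came from a cross of Th-cre mice with Slc6a2-eGFP/Rpl10a mice on a C57Bl/6 background. The second transgene uses regulatory sequence of Slc6a2, the noradrenaline transporter, to put a green fluorescent tag on the ribosomal protein Rpl10a, so that tagged ribosomes of noradrenergic cells can be pulled down with the RNA on them. The age of the animals, the vehicle and the interval after infusion are not given in the sources used here.

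Noradrenergic neurons of the hindbrain make noradrenaline from tyrosine with the enzymes Th, Ddc and Dbh, and load it into vesicles with Slc18a2. The pathways described here are general stress circuits of such cells. The unfolded protein response raises chaperones of the endoplasmic reticulum (ER) through the factors ATF6 and XBP1, and its PERK branch acts through the factors ATF4 and CHOP (the product of Ddit3), a route shared with other triggers as the integrated stress response. NRF2 drives antioxidant genes such as Hmox1, and p53 drives Cdkn1a and other regulators of the cell cycle and of DNA repair.

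The IP libraries held between 12654489 and 19043798 reads in hTyr and between 15680491 and 20368032 in EYFP, counted over the genes of the table. Values are log2 CPM (reads scaled to a common effective library size), and differences are hTyr minus EYFP on that scale unless stated otherwise. Pearson's r across genes was 0.969 to 0.982 between hTyr libraries, 0.963 to 0.989 between EYFP libraries and 0.960 to 0.989 between treatments. Y-linked genes had reads in 2 of 5 hTyr and 3 of 6 EYFP libraries. RNAs of other tissue stood apart between libraries. The mean level of 5 cerebellar genes (Pcp2, Car8, Ppp1r17, Gabra6 and Cbln3, chosen after their values were seen) was 1.60 to 2.41 in hTyr, but 3.69, 5.22 and 4.42 in EYFP animals IP_504, IP_506 and IP_511 against 2.22 to 2.99 in the other EYFP animals. Noradrenergic markers were present in every library: Dbh, which turns dopamine into noradrenaline, lay between 6.61 and 8.31. Markers of other cell types were also read. The summed level of the oligodendrocyte list was 7985 to 11065 CPM in hTyr and 7997 to 10002 in EYFP, and that of the noradrenergic list was 2858 to 4865 and 2486 to 3540 CPM.

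Across all genes the treatments differed little. The median absolute difference was 0.09, and 48.2% of the genes were higher in hTyr. An absolute difference of at least 1 was reached by 27 genes, 11 higher and 16 lower, and one of at least 0.5 by 179 genes, 61 higher and 118 lower. At an adjusted p under 0.05 (limma, Benjamini-Hochberg over all genes) 7 genes were called, which is 0.0556% of those tested, all 7 higher in hTyr. No lower gene was called, where the lowest adjusted p was 0.407. Without adjustment, 363 genes (2.88%) were higher and 417 (3.31%) lower at a p under 0.05. A p under 0.01 was reached by 85 higher and 85 lower genes (0.675% each). In 49 genes (0.389%) every hTyr library lay above every EYFP library, and in 33 genes (0.262%) every hTyr library lay below.

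The 7 genes that rose are known from ER stress, the integrated stress response, oxidative stress, the p53 response and nerve injury. Sdf2l1, an ER protein that works with the chaperone Hspa5 (chromosome 16, 17130138 to 17132383 in RefSeq's GRCm38.p6, the build called mm10), stood at 6.60, 6.42, 5.55, 5.76 and 5.62 in hTyr animals IP_501, IP_502, IP_508, IP_509 and IP_510, and in EYFP at a lowest of 4.11, a median of 4.62 and a highest of 4.82. It rose by 1.44 (SE 0.19, adjusted p = 0.00566), a fold of 2.72. All 5 hTyr libraries were above the 6 EYFP libraries, and animals IP_501 and IP_502 were the highest. Dnajb9, a co-chaperone of Hspa5 induced by XBP1 (chromosome 12, 44205897 to 44210068), stood at 6.30, 6.26, 5.93, 6.14 and 6.02 in hTyr, in the same order of animals, and at 5.35, 5.60 and 5.74 (lowest, median, highest) in EYFP. Its rise was the smallest of the 7, at 0.57 (SE 0.09, adjusted p = 0.0287), and the hTyr libraries lay close together.

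Ddit3, which encodes CHOP (chromosome 10, 127290793 to 127296291), stood at 7.24, 6.86, 6.19, 6.31 and 6.12 in hTyr and at 5.04, 5.42 and 5.81 in EYFP. It rose by 1.14 (SE 0.19, adjusted p = 0.0287), a fold of 2.20, with no overlap. Atf3, a transcription factor induced by the integrated stress response and by nerve injury (chromosome 1, 191170296 to 191183333), had the fewest reads of the 7, 84 to 215 reads in hTyr and 35 to 88 in EYFP. Its levels were 3.56, 3.49, 2.60, 2.86 and 3.50 in hTyr and 1.11, 1.63 and 2.43 in EYFP, a rise of 1.54 (SE 0.25, adjusted p = 0.0287). The lowest hTyr animal (IP_508) and the highest EYFP animal (IP_504) were nearest to each other.

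Hmox1, heme oxygenase 1, which breaks down heme (chromosome 8, 75093618 to 75100593), stood at 6.03, 5.19, 4.29, 4.57 and 4.54 in hTyr and at 3.08, 3.21 and 3.28 in EYFP. Its rise of 1.73 (SE 0.23, adjusted p = 0.00566) was the largest of the 7, a fold of 3.31. The EYFP libraries were nearly level (SD 0.07), whereas the hTyr libraries had an SD of 0.70. Cdkn1a, the p21 inhibitor of cyclin-dependent kinases (chromosome 17, 29090979 to 29100722), stood at 6.26, 5.74, 5.58, 5.41 and 5.50 in hTyr and at 3.83, 4.49 and 4.81 in EYFP, a rise of 1.27 (SE 0.17, adjusted p = 0.00566). Here the spread was alike in both treatments. Tnfrsf12a, the receptor of the cytokine TWEAK (chromosome 17, 23675445 to 23677449), stood at 5.81, 5.16, 4.91, 5.19 and 4.62 in hTyr and at 3.89, 4.05 and 4.43 in EYFP, a rise of 1.03 (SE 0.17, adjusted p = 0.0287).

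**Figure D1:**
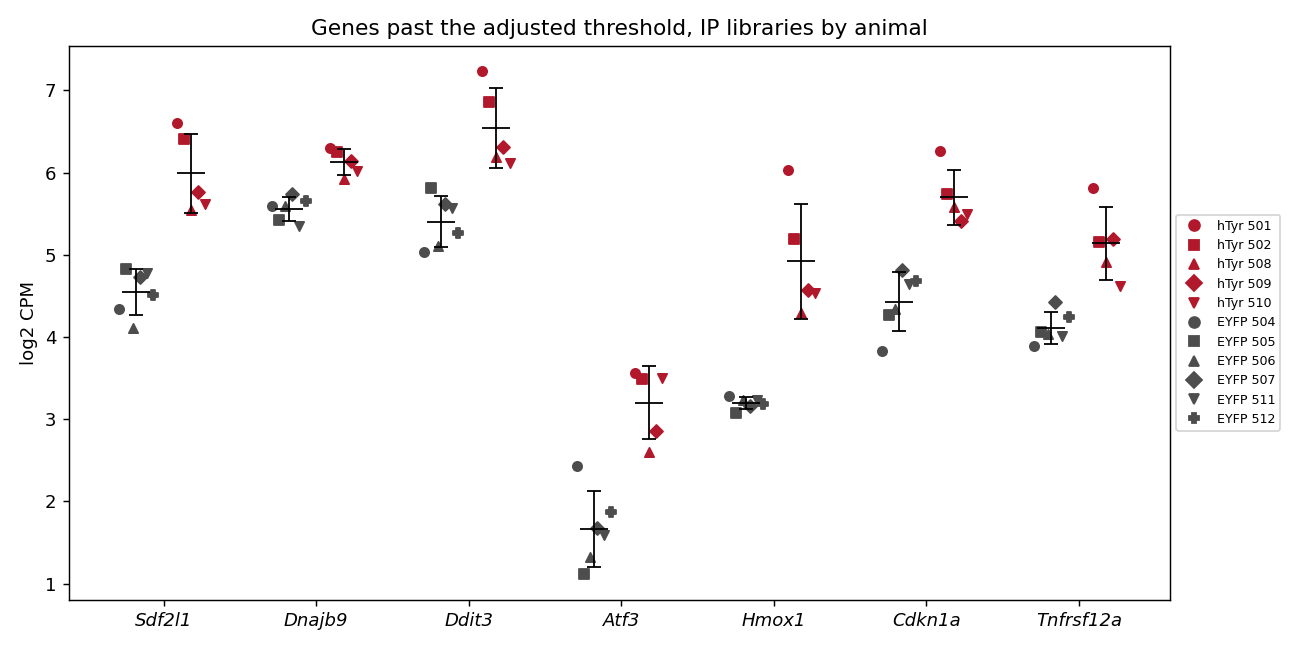
Level (log2 CPM, vertical axis) of the 7 genes past the adjusted threshold in each IP library, with hTyr in red and EYFP in grey, 1 symbol per animal, and bars for the mean ± SD (n = 5 and 6). The hTyr libraries lie above the EYFP libraries for each gene, animal IP_501 is the highest hTyr library in all 7, and Hmox1 has an SD of 0.70 in hTyr against 0.07 in EYFP.

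The calls depended on single animals and on covariates. Sdf2l1, Hmox1 and Cdkn1a stayed past the threshold in each of the 11 fits that left out an animal. The count of called genes was 4 without hTyr animal IP_501, 3 without IP_502, 11 without IP_508 and 3 without IP_509, and it was 4 without EYFP animal IP_505 and 3 without each of IP_506, IP_511 and IP_512. With the mean level of the noradrenergic list as a covariate 4 genes were called, 3 of them among the 7, and with total reads 3. The cerebellar level as a covariate, added after the data were seen, left 0 genes past the adjusted threshold in limma, while 156 higher and 217 lower genes had an unadjusted p under 0.05. The 7 genes then kept 82.4% to 95.8% of their differences, with unadjusted p between 7.34e-05 and 0.00159, while the SE grew to between 128% and 136%. The part of cerebellar RNA in the result was otherwise not tested.

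The next 5 genes by p were all higher in hTyr, without passing the threshold. Tes, a focal adhesion protein, was the first of them, at 3.29, 3.40, 2.50, 2.66 and 2.55 in hTyr and at 1.23, 1.72 and 1.91 (lowest, median, highest) in EYFP, a difference of 1.21 (SE 0.22, adjusted p = 0.0689). Ifrd1, a transcriptional co-regulator, was higher by 0.65 (SE 0.13, adjusted p = 0.151), and its groups did not overlap either. Cstb, the cysteine protease inhibitor cystatin B, was higher by 0.58, the ER protein Creld2 by 0.86 and the Golgi calcium-binding protein Nucb1 by 0.40, each with an adjusted p of 0.407. Groups did not overlap for Cstb and Nucb1, and did for Creld2. Adcyap1, the neuropeptide PACAP, stood at 6.50, 5.94, 5.58, 5.87 and 5.83 in hTyr and at 4.91, 5.45 and 5.53 in EYFP, a difference of 0.61 (adjusted p = 0.479) without overlap. Other non-overlapping genes above EYFP were the glucose transporter gene Slc2a6 (0.40), Taf9b (0.50), which encodes a subunit of the general transcription factor TFIID, the surface receptor gene Pvr (0.50) and Cd24a (0.47). Their adjusted p lay between 0.479 and 0.729, so none of them was called.

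ER chaperones and folding enzymes were the list with the most members on the higher side. The adjusted threshold was passed by 2 of its 32 measured members (Sdf2l1 and Dnajb9). Of the 32, 16 were higher and 0 lower below an unadjusted p of 0.05, against 2.88% and 3.31% of all genes. Their median difference was 0.17, beside -0.01 over all genes, and 28 of the 32 were above 0. The count was 12 to 16 with an animal left out and 5 with the cerebellar level as a covariate. Hspa5, the main ER chaperone (BiP), stood at 9.15, 8.75, 8.58, 8.89 and 8.42 in hTyr and at 7.85, 8.23 and 8.61 in EYFP, a difference of 0.53 (SE 0.14, adjusted p = 0.486). Animals IP_508 and IP_510 lay inside the EYFP range. Hsp90b1, the ER form of Hsp90, was higher by 0.46, the disulfide isomerases Pdia4, Pdia6 and Pdia3 by 0.66, 0.36 and 0.36, the lectin chaperones Calr and Canx by 0.34 and 0.28, and the nucleotide exchange factor Hyou1 by 0.36. Besides Sdf2l1 and Dnajb9, the groups of 2 more members did not overlap: Ssr3 of the translocon-associated complex (0.23) and the isomerase Txndc5 (0.17). Of all genes 0.389% lay above EYFP without overlap. Xbp1 itself was at 0.10 (SE 0.08, adjusted p = 0.894).

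The letters of an ER stress response element, the site class bound by ATF6 with NF-Y, were looked for in the promoters of these genes because so many members stood on the higher side. The search took CCAAT, any 9 bases and then CCACG, on both strands, in the 250 bases before the RefSeq start (GRCm38.p6). It was found in 16 of 9578 genes of the table with a promoter entry (0.167%), and in 7 of the 24 chaperone members with one: Calr, Canx, Creld2, Dnajc3, Hsp90b1, Hspa5 and Pdia6. The 3 shown are those of the chaperone Hspa5 and of 2 members with the match in opposite orientations, each 5′ to 3′ on the strand of the gene, with the element in capitals and 20 bases on each side.
Hspa5: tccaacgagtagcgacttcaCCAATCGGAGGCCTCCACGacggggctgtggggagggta
Pdia6: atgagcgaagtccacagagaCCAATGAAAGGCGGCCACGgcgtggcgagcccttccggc
Creld2: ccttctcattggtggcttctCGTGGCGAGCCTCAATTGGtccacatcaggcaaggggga
They lie at chr2:34772005-34772063 (plus strand), chr12:17266471-17266529 (plus strand) and chr15:88819500-88819558 (plus strand). In Hspa5 and Pdia6 the element reads as written and begins 65 and 98 bases before the start, and in Creld2 it is the reverse complement and begins 126 bases before it. In IP these genes were higher by 0.53, 0.36 and 0.86 (unadjusted p = 0.00125, 0.00482 and 0.000372), with none past the adjusted threshold in limma. Hsp90b1, which holds the element at 2 places, was higher by 0.46, Calr by 0.34, Canx by 0.28 and Dnajc3 by 0.17. For Dnajc3 the unadjusted p in limma was 0.0894. Sdf2l1 and Dnajb9, the members past the adjusted threshold, were not among those with a match. Only 24 of the 32 members had a promoter entry, and whether Sdf2l1 and Dnajb9 did is not given here. The list was drawn up as genes raised through ATF6 and XBP1, so a share of matches above that of all genes was built into the choice. A match is a description of letters, and the factor's binding was not measured.

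The integrated stress response list had a median difference of 0.13. Of its 21 members in the table, 6 were higher and 0 lower below an unadjusted p of 0.05, against 2.88% and 3.31% of all genes. Besides Atf3 and Ddit3, which passed the adjusted threshold, these were Chac1 (0.66), which degrades glutathione, Ppp1r15a (0.71), the phosphatase subunit GADD34 that reverses the block on translation, Sesn2 (0.63) and the autophagy receptor Sqstm1 (0.21). Ppp1r15a stood at 5.58, 5.25, 4.60, 4.79 and 4.57 in hTyr and at 4.04, 4.20 and 4.54 in EYFP, without overlap, and its adjusted p was 0.415. Atf4 was at 0.13 (adjusted p = 0.859). The amino acid transport and serine synthesis list, which holds targets of ATF4, had 2 of 19 members higher, the mitochondrial folate enzyme Mthfd2 (0.31) and the amino acid transporter Slc7a5 (0.37), with a median of 0.04. That count was 0 without hTyr animal IP_501 or IP_510 and 1 without hTyr animal IP_502 or EYFP animal IP_507 or IP_511.

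A composite element bound by CHOP or ATF4 with C/EBP partners was searched as TGATGNAAN on both strands of the same windows. It was found in 213 of the 9578 genes (2.22%) and in 6 of the 19 members of the integrated stress response list with a promoter entry: Atf3, Chac1, Herpud1, Jdp2, Nupr1 and Vldlr. The 2 shown are the members with the smallest p among these 6, in capitals as the reverse complement of the search.
Atf3: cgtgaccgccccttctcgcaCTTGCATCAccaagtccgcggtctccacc
Chac1: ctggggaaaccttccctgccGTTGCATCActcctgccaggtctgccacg
They lie at chr1:191183416-191183464 (minus strand) and chr2:119351028-119351076 (plus strand), and the elements begin 111 and 194 bases before the starts. Atf3 rose in IP, as given above, and Chac1 was higher by 0.66 (adjusted p = 0.415). The other 4 holders of the letters had differences of 0.16 (Herpud1), 0.04 (Vldlr), -0.11 (Jdp2) and -0.18 (Nupr1), so that 2 of these 4 stood lower in hTyr. As members were listed for their tie to ATF4 and CHOP, a share above that of all genes was built into the choice. Binding was not measured.

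p53 targets had 10 members higher and 0 lower of 24 below an unadjusted p of 0.05, against 2.88% and 3.31% of all genes. Their median difference of 0.21 was the highest median of the 43 lists. Cdkn1a alone passed the adjusted threshold and alone had no overlap, a pattern found above EYFP in 0.389% of all genes. The others were of moderate size: the kinase gene Plk3 (0.34), Ddit4l (0.43), the cyclin gene Ccng1 (0.32), the nuclease gene Aen (0.30), Trp53inp1 (0.29), the nucleotide reductase subunit Rrm2b (0.25), Mdm2, the ubiquitin ligase of p53 (0.21), Phlda3 (0.19) and Sesn2, which the integrated stress response list also holds. The mean level of the list was 4.85, 4.78, 4.81, 4.79 and 4.72 in hTyr animals IP_501, IP_502, IP_508, IP_509 and IP_510. In EYFP it was 4.49 to 4.60, below each hTyr library. Of the same members 4 were higher and 1 lower in input at an unadjusted p under 0.05, beside 0.992% and 2.04% of all genes there. The count in IP was 3 with total reads or with the cerebellar level as a covariate, and 6 without EYFP animal IP_506 or without hTyr animal IP_508 or IP_509.

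**Figure D2:**
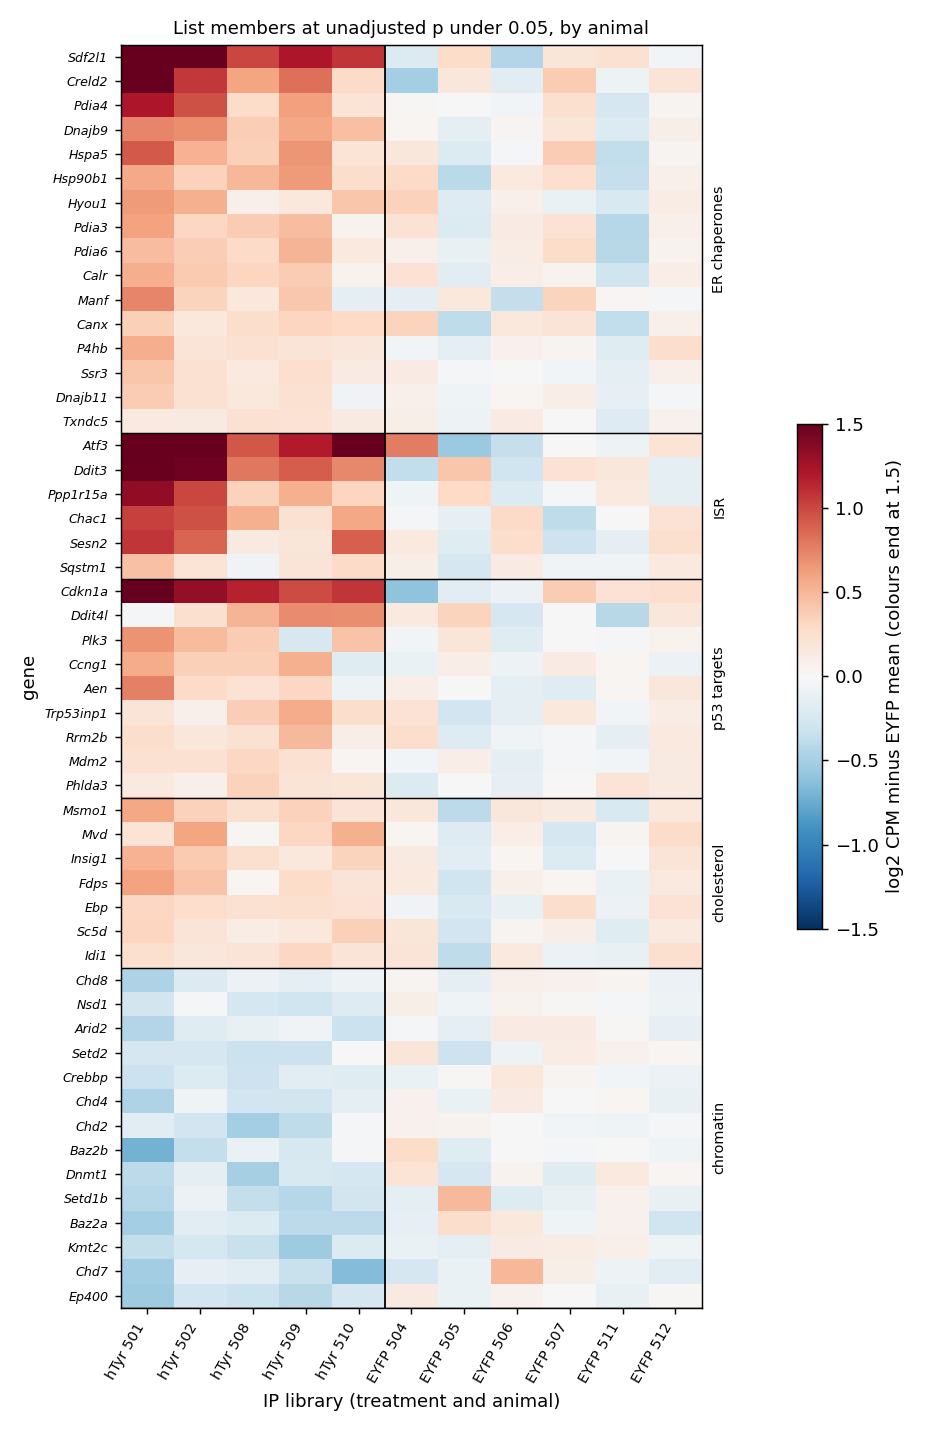
Level in each IP library (columns, 5 hTyr then 6 EYFP animals) minus the EYFP mean, in log2 CPM, for named members of 5 lists at an unadjusted p under 0.05 (rows), red above and blue below the EYFP mean. Sdf2l1, Ddit3 and Cdkn1a are red in all 5 hTyr animals, the mean level of the whole ER chaperone list was highest in animal IP_501 (6.76) and lowest in IP_510 (6.40) among hTyr animals, and the chromatin genes, with differences of -0.36 to -0.20, are mostly pale blue in hTyr.

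Cholesterol synthesis had 7 of 23 members higher and 0 lower below an unadjusted p of 0.05, against 2.88% and 3.31% of all genes. The median was 0.16, and 20 members were above 0, where 48.2% of all genes were. The 7 were Insig1 (0.33), the sterol-regulated retention protein of the pathway, Msmo1 (0.35), Mvd (0.33), Fdps (0.31), Ebp (0.25), Sc5d (0.23) and Idi1 (0.22). Their adjusted p was 0.533 or more. Msmo1 was the 1 member without overlap, where 0.389% of all genes lay above EYFP in that way. It stood at 7.40, 7.16, 7.05, 7.17 and 7.03 in hTyr and at 6.42, 6.96 and 6.98 in EYFP. EYFP animals IP_505 and IP_511 had the lowest mean level of the list (5.78 and 5.87). The count of higher members was 4 without either of them, and also 4 with sample weights. With the noradrenergic level as a covariate it was 4 as well, and with the cerebellar level 2.

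Among the oxidative stress lists Hmox1 alone passed the adjusted threshold. Of 35 NRF2 targets 3 were higher and 0 lower below an unadjusted p of 0.05, where 2.88% and 3.31% of all genes were. The 3 were Hmox1, Srxn1 (0.28), which restores oxidised peroxiredoxins, and Sqstm1. The median of the 35 was 0.05. Without EYFP animal IP_504 the NRF2 counts were 5 and 2, with a spread shared over the 22 libraries 5 and 0, and with the cerebellar level as a covariate 1 and 0. Nqo1, a quinone reductase and a standard NRF2 target, stood at 3.47, 4.09, 3.92, 4.05 and 4.08 in hTyr and at 3.36, 3.98 and 4.12 in EYFP, a difference of 0.03 (SE 0.15, adjusted p = 0.983) whose sign turned in 5 alternatives. Antioxidant enzymes had 1 of 28 members higher (the glutaredoxin Glrx3, 0.25), with a median of 0.01, and this share was near the 2.88% of all genes. The count was 4 without EYFP animal IP_504 and 2 without hTyr animal IP_502, IP_508, IP_509 or IP_510 or EYFP animal IP_507. Iron and metal handling had 0 higher and 1 lower of 26, the metallothionein Mt1 (-0.37). Without EYFP animal IP_504 the iron list had 1 higher and 5 lower, without hTyr animal IP_508 1 and 2, and without EYFP animal IP_507 1 and 0. It had 0 lower members without hTyr animal IP_501, IP_509 or IP_510 or EYFP animal IP_511 or IP_512. Its median (0.03) turned negative without hTyr animal IP_501, IP_502, IP_508, IP_509 or IP_510 or EYFP animal IP_505 or IP_511.

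Genes of axon injury and regeneration had 5 of 28 members higher and 0 lower, with a median of 0.09. Besides Tnfrsf12a and Atf3, which passed the adjusted threshold, these were Adcyap1, the transcription factor Klf6 (0.46) and Jun (0.23). Of 32 immediate early genes, which respond to activity, Maff (0.98), Egr1 (0.30) and Jun were higher and Npas4 (-0.86) lower at that p. The median of this list was -0.01. The single lower member is no more than the background of 3.31%. Npas4 had few reads, 24 to 54 in hTyr and 37 to 132 in EYFP. The counts of the immediate early list were 1 and 1 without EYFP animal IP_506, and 1 higher and 4 lower without hTyr animal IP_509. Fos was at 0.23 (SE 0.16, adjusted p = 0.862). Maff stood at 4.18 in animal IP_501 and at 2.66 to 3.05 in the other hTyr animals, against 1.40 to 2.74 in EYFP.

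Among the protein turnover lists most lysosomal and proteasome members lay above 0 by small amounts, where 48.2% of all genes did. At an unadjusted p under 0.05, used for the counts here, 2.88% of all genes were higher and 3.31% lower. The lysosomal and proteasome counts at that p were near these shares. Autophagy had 6 of 46 members higher (Atg7 0.49, Tmem41b 0.32, Atg5 0.25, Fam134b 0.23, Sqstm1 0.21 and Optn 0.17) and 2 lower (Tfeb -0.26 and Ambra1 -0.27). Tfeb encodes a master transcription factor of lysosomal genes. The 2 lower members are near the share of all genes and are no result about the autophagy list. With an animal left out the autophagy counts were 4 to 6 higher and 1 to 4 lower, the 4 without hTyr animal IP_509, and with the cerebellar level as a covariate they were 1 and 0. Lysosomal hydrolases and membrane proteins had 43 of 54 members above 0, with a median of 0.08, but 3 at an unadjusted p under 0.05 (among them Gla 0.25 and Lamp2 0.26), and 0 with sample weights, with total reads, the noradrenergic or the cerebellar level as a covariate, or without EYFP animal IP_505 or IP_511. The proteasome had 36 of 47 members above 0 and 1 of them, Psmc6 (0.28), at that p, a count that was 2 without hTyr animal IP_502, 3 without EYFP animal IP_504, and 0 without hTyr animal IP_501, IP_509 or IP_510 or EYFP animal IP_505 or IP_511. ER-associated degradation had 2 of 28 higher, Ube2j1 (0.22) and Ubxn4 (0.43). For the latter animal IP_510 stood apart, at 7.54, where the other hTyr animals stood at 6.03 to 6.48 and EYFP at 5.97 to 6.25. The degradation count was 0 without animal IP_501, 4 without EYFP animal IP_504, and 1 without EYFP animal IP_506, IP_511 or IP_512. ER to Golgi transport coats had 3 of 34 higher (Surf4 0.33, Mcfd2 0.22 and Kdelr2 0.21), and 0 with the cerebellar level as a covariate. Translation initiation factors had 5 of 42 higher, Eif1a (0.33), Eif1ax (0.33), Eif2s2 (0.29), Eif5 (0.23) and Eif5a2 (0.23), and 0 lower, and 2 higher with the cerebellar level. Eif1a and Eif1ax are close copies between which reads can be divided, so their separate values are uncertain.

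At an unadjusted p under 0.05 synaptic vesicle genes had 4 of 52 members higher and 1 lower. The higher were Sv2c (0.58), Rab3b (0.38), Syt4 (0.33) and Napb (0.29), and the lower was the active zone scaffold Pclo (-0.30). The higher count was 0 without hTyr animal IP_501, 1 without EYFP animal IP_511, 2 without hTyr animal IP_502 or IP_510 or EYFP animal IP_505 or IP_507, and 6 without EYFP animal IP_504. It was 0 to 5 under the other settings, the 0 with the noradrenergic level as a covariate. Ubiquitin enzymes had 2 higher and 2 lower of 46, among them the ligase genes Ubr4 (-0.29) and Nedd4l (-0.24), and with an animal left out 0 to 4 higher (0 without hTyr animal IP_501, 4 without EYFP animal IP_504) and 1 to 3 lower. A single member was higher in 4 lists: St13 (0.21) of 31 cytosolic heat shock genes, Vbp1 (0.21) of 15 chaperonin and prefoldin genes, Gbp2 (0.47) of 29 interferon genes and Gch1 of 26 Parkinson disease genes. Beside the 2.88% of all genes that were higher, a single member is no result about such a list. Of 45 neurofilament, tubulin and motor genes the dynein heavy chain gene Dync1h1 (-0.29) was lower, which is likewise no more than the background of 3.31%.

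**Figure D3:**
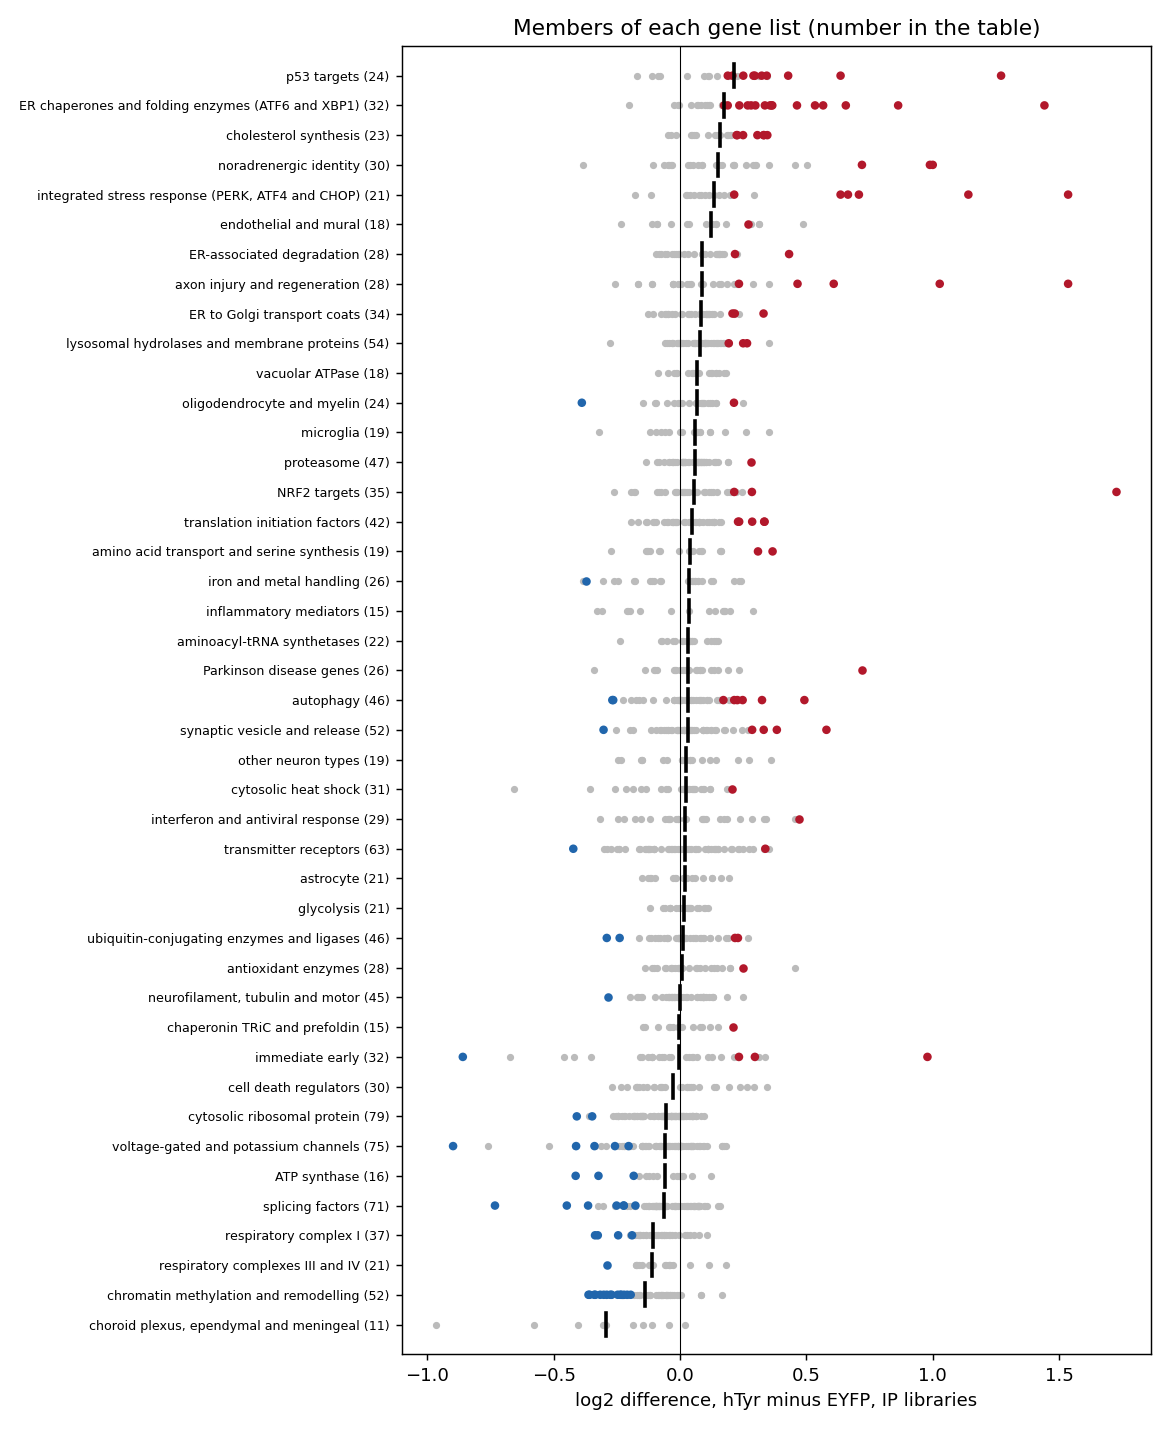
Difference in IP (log2, hTyr minus EYFP, horizontal axis) of each member of the 43 gene lists (rows, number in the table in brackets), with members at an unadjusted p under 0.05 in red (higher) or blue (lower), the others in grey, and a black bar at the median. The medians run from 0.21 for p53 targets and 0.17 for ER chaperones to -0.14 for chromatin genes and -0.29 for the choroid plexus list.

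On the lower side no gene passed the adjusted threshold. Snrnp70 and Ep400, which had the smallest p among lower genes, were moderate in size. Cerebellar genes had larger differences, among them Pcp2 (-2.39, adjusted p = 0.479, rank 22 by p) and Gabra6 (-1.53, adjusted p = 0.545). Their groups overlapped, and they are described under the other observations. Snrnp70, a protein of the U1 splicing particle, stood at 6.64, 6.59, 6.90, 6.82 and 6.71 in hTyr and at 6.87, 7.18 and 7.50 in EYFP, a difference of -0.45 (SE 0.10, adjusted p = 0.407). Ep400, an ATPase of the TIP60 chromatin complex, stood at 4.98, 5.23, 5.19, 5.10 and 5.27 in hTyr and at 5.41, 5.52 and 5.65 in EYFP, a difference of -0.36 (SE 0.08, adjusted p = 0.407). For Ep400 the groups did not overlap, for Snrnp70 they did. Other genes whose hTyr libraries all lay below EYFP were Urb1 (-0.69), a ribosome biogenesis factor, Lpp (-0.67), a focal adhesion protein, the cofilin phosphatase gene Ssh3 (-0.52) and the methyltransferase gene Vcpkmt (-0.42). The small RNA polymerase II subunits Polr2l (-0.48) and Polr2j (-0.32), the calcium channel gene Cacna1d (-0.41), the zinc finger gene Zfp513 (-0.40), Brd8 of the TIP60 complex (-0.32), St5 (-0.38), Ascc2 (-0.32) and Eps15l1 (-0.30) followed. Their adjusted p ran from 0.479 to 0.701.

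Chromatin methylation and remodelling was the list with the most members on the lower side, 15 of 52 at an unadjusted p under 0.05 and 0 higher, against 3.31% and 2.88% of all genes. The median was -0.14, with 4 members above 0, and none passed the adjusted threshold. They included the remodellers Chd2 (-0.27), Chd4 (-0.25), Chd7 (-0.36) and Chd8 (-0.20), the methyltransferases Kmt2c (-0.34), Nsd1 (-0.21), Setd1b (-0.32) and Setd2 (-0.23), the acetyltransferase Crebbp (-0.24) and the DNA methyltransferase Dnmt1 (-0.30). Groups did not overlap for 3 of them, Ep400, Kmt2c and Crebbp, where 0.262% of all genes had that pattern. Kmt2c stood at 4.996, 5.09, 5.03, 4.82 and 5.15 in hTyr and at 5.21, 5.37 and 5.49 in EYFP. In input 8 of the 52 were lower at an unadjusted p under 0.05, with a median of -0.09, beside 2.04% and -0.01 over all genes. The transcripts of this list are long, with a median of 8544 bases against 3495 for all genes with a length. With the length and GC trend of each library removed the count was 14 and the median -0.08, and with the cerebellar level as a covariate the count was 4.

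At an unadjusted p under 0.05, 3.31% of all genes were lower and 2.88% higher. Splicing factors had 7 of 71 members lower and 0 higher (median -0.07): Snrnp70, Snrpg (-0.73), Clk3 (-0.25), Ddx17 (-0.22), Srrm2 (-0.22), Ddx39b (-0.18) and Srrm4 (-0.36). The count was 4 lower and 1 higher with the cerebellar level as a covariate and 11 lower with the length and GC trend removed. Snrpg was read at a low level, between 1.70 and 2.43 in hTyr and between 2.35 and 3.30 in EYFP. Voltage-gated and potassium channels had 5 of 75 lower and 0 higher (median -0.06). Among these were Kcnmb4 (-0.90), a subunit of the large-conductance calcium-activated potassium channel, Kcnt1 (-0.34) and the calcium channel genes Cacna1d and Cacna1a (-0.26). The count ran from 4 to 11 with an animal left out, with 10 without hTyr animal IP_502 or IP_509 and 11 without EYFP animal IP_512. Under the other settings it ran from 3 to 6. Of 63 transmitter receptor genes Grin2c (-0.42) was lower and Tacr3 (0.34) higher, shares below the background.

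Most members of the respiratory chain and ribosomal lists lay slightly below 0. At an unadjusted p under 0.05, 3.31% of all genes were lower, and the shares of complex I and of ATP synthase were above that. Complex I had 31 of 37 members below 0, with a median of -0.11, and 4 at that p (Ndufa1 -0.34, Ndufc1 -0.33, Ndufa3 -0.25 and Ndufb6 -0.19). Complexes III and IV had 18 of 21 below 0 and 1 at that p, Uqcr11 (-0.29). ATP synthase had 3 of 16, Atp5k (-0.41), Atp5e (-0.32) and Atp5l (-0.18), all small subunits. Cytosolic ribosomal proteins had 59 of 79 below 0, with a median of -0.06, and 2 at that p, Rpl38 (-0.41) and Rpl39 (-0.35), a share under the background of 3.31%. Ribosomal protein genes have many processed copies in the genome, which makes their counts uncertain. In input the medians of these 4 lists were 0.07, 0.07, 0.06 and 0.03. The mean level of complex I was 7.18 to 7.43 in hTyr and 7.27 to 7.58 in EYFP, so the treatments overlapped, and EYFP animal IP_507 was the highest. The count of complex I members was 10 without EYFP animal IP_504, 7 without hTyr animal IP_509, 1 without hTyr animal IP_510, and 2 without hTyr animal IP_502 or without any 1 of EYFP animals IP_505, IP_507, IP_511 and IP_512. For complexes III and IV the count was 4, with 1 higher member, without EYFP animal IP_504 and 0 without hTyr animal IP_502 or IP_510 or EYFP animal IP_505 or IP_507. For ATP synthase it was 1 without hTyr animal IP_502 or EYFP animal IP_505, IP_507 or IP_511. The ribosomal count was 0 without hTyr animal IP_510, where the median turned to 0.03, and 14 without EYFP animal IP_504. It was 5 without hTyr animal IP_508 or IP_509 or EYFP animal IP_506, 4 without hTyr animal IP_501, and 1 without hTyr animal IP_502 or EYFP animal IP_505, IP_507 or IP_511.

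GC-richer transcripts lay on the lower side, while longer ones did so mainly among genes at an unadjusted p under 0.05. Genes lower at an unadjusted p under 0.05 had a median transcript length of 4419 bases and a median GC content of 52.7%, and higher genes 2972 bases and 46.9%. Over the 12381 genes with both values, which do not count as replicates, the difference had a Spearman rho of -0.261 with GC content and -0.05 with length. With each library's trend on both removed, 6 of the 7 calls held, all but Dnajb9.

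Of the 31 noradrenergic identity genes listed, 30 were in the table. There 3 were higher and 0 lower below an unadjusted p of 0.05, against 2.88% and 3.31% of all genes. None passed the adjusted threshold, and Th and Gch1 were among the 3. Th, tyrosine hydroxylase, stood at 9.10, 8.45, 7.26, 7.40 and 7.81 in hTyr and at 6.53, 6.93 and 7.70 in EYFP, a difference of 0.99 (SE 0.28, adjusted p = 0.533), and Gch1, which makes its cofactor, was higher by 0.72. Animals IP_501 and IP_502 were the highest in both genes, and the groups overlapped. Slc18a2 (0.50), Ddc (0.30), Gal (0.35), Phox2a (0.26) and Dbh (0.04) had unadjusted p above 0.05, as did Slc6a2 (-0.39, SE 0.25). The mean level of the list was 6.41, 6.02, 5.60, 5.72 and 5.74 in hTyr and 5.42 to 6.01 in EYFP. In bulk RNA of this kind, fewer cells of a type and less RNA per cell cannot be told apart. Without hTyr animal IP_501 the median difference of the list was 0.04 in place of 0.15, with 3 members higher and 1 lower. The higher members numbered 8, 6 and 5 without hTyr animal IP_508, IP_509 or IP_510, and 7 and 5 without EYFP animal IP_504 or IP_512.

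The stress lists were read against this noradrenergic level, animal by animal. hTyr animal IP_502 and EYFP animal IP_504 had nearly the same noradrenergic level, 6.02 and 6.01, while their mean levels over the ER chaperone list were 6.54 and 6.33 and over p53 targets 4.78 and 4.60. hTyr animal IP_508, at a noradrenergic level of 5.60, had an ER chaperone level of 6.51, above the highest EYFP library (6.43, animal IP_507). hTyr animal IP_510 (6.40) lay inside the EYFP range for this list. The noradrenergic levels of hTyr animal IP_501 (6.41) and EYFP animal IP_511 (5.42) had no counterpart in the other treatment. hTyr animal IP_502 and EYFP animal IP_504 also differed in cerebellar level, at 2.10 and 3.69. The noradrenergic list itself holds Th and Gch1, which stood higher in hTyr. What part the noradrenergic level had in the stress lists was not tested by these comparisons of single animals. With the noradrenergic level as a covariate 7 of the 24 p53 targets were higher below an unadjusted p of 0.05, in place of 10. With the noradrenergic level as a covariate Sdf2l1, Hmox1 and Cdkn1a stayed past the threshold with differences of 1.31, 1.43 and 1.21, and Slc6a2, itself a member of that list, was called as lower (-0.77, adjusted p = 0.0311), while Atf3, Ddit3, Tnfrsf12a and Dnajb9 were not.

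**Figure D4:**
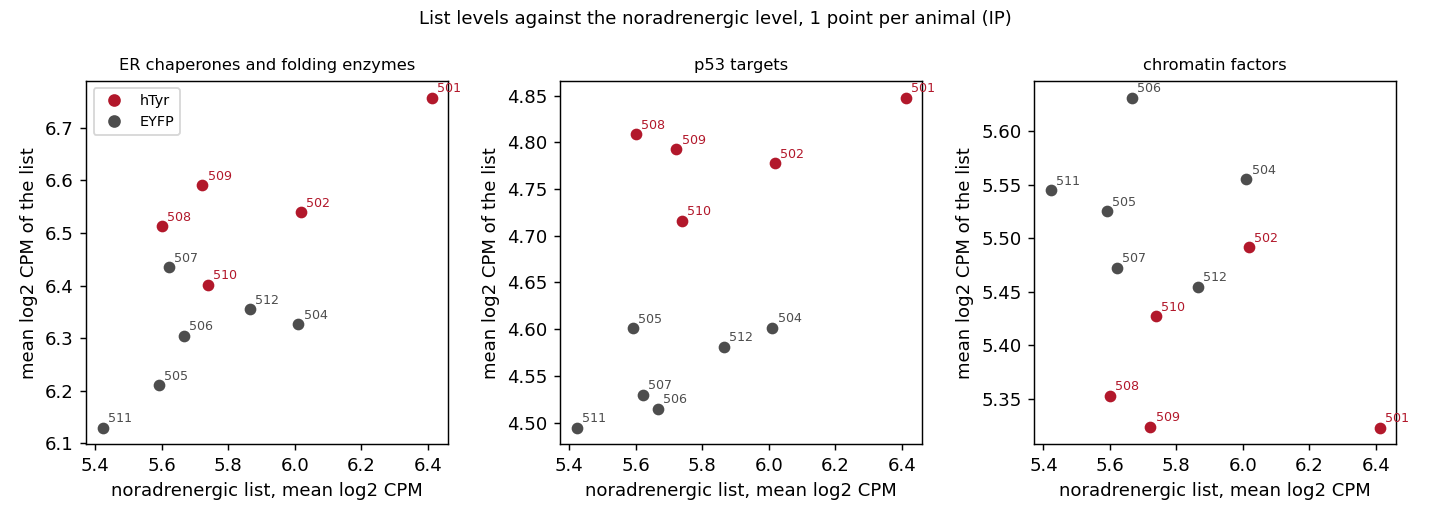
Mean level (log2 CPM, vertical axis) of ER chaperones, p53 targets and chromatin genes against the mean level of the noradrenergic list (log2 CPM, horizontal axis), 1 point per IP library with its animal number, hTyr in red and EYFP in grey. p53 targets are at 4.72 or more in hTyr and at 4.60 or less in EYFP, while ER chaperones overlap through animal IP_510 and chromatin genes through animal IP_502.

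For markers of other cell types few members differed, and the counts moved with single animals. Astrocyte (21 members), microglia (19), other neuron types (19) and choroid plexus, ependymal and meningeal genes (11) had 0 higher and 0 lower below an unadjusted p of 0.05. Oligodendrocyte genes had 1 of each (Ermn 0.21 and Cspg4 -0.39), and of 18 endothelial and mural genes Rgs5 (0.27) was higher. At that p 2.88% of all genes were higher and 3.31% lower, so single members are no result about these lists. The median of the endothelial list was 0.12, and 0.01 to 0.26 with an animal left out. Its higher count was 6 without hTyr animal IP_502 and 2 without EYFP animal IP_504, and 0 without hTyr animal IP_508, IP_509 or IP_510 or EYFP animal IP_505 or IP_507. Microglia had 2 members higher without hTyr animal IP_502, and the choroid plexus list 2 lower without EYFP animal IP_504. None of the 15 inflammatory mediators or of the 30 cell death regulators reached that p, nor did any gene of glycolysis, the vacuolar ATPase or the aminoacyl-tRNA synthetases. With an animal left out the inflammatory and the cell death list each had 0 to 1 higher and 0 to 2 lower members. Choroid plexus genes had the lowest median of the lists, at -0.29, with 10 of 11 members below 0, yet their mean level overlapped widely, at 3.80 to 5.20 in hTyr and 4.34 to 5.24 in EYFP. Summed over the list this was 1105 to 3450 CPM in hTyr and 1343 to 3233 in EYFP.

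The typical spread between animals was alike in both treatments, and animal IP_501 was the highest hTyr library for each gene that rose. The median SD over genes was 0.19 in hTyr and 0.19 in EYFP, and 52.5% of genes had the larger SD in hTyr, while 5 of the 7 called genes did. Animal IP_501 was the highest hTyr library for 21.4% of all genes, for 50.4% of those higher at an unadjusted p under 0.05 and for all 7 called genes. It was the lowest for 34.3% of those lower. Animal IP_508 was the lowest hTyr library for 41.0% of the higher genes and the highest for 34.1% of the lower ones. Without animal IP_501 the difference was 1.45 for Hmox1, 1.29 for Sdf2l1, 1.13 for Cdkn1a and 0.52 for Dnajb9. The groups of the 7 called genes did not overlap, so leaving out an animal could not turn the sign. Atf3, Ddit3 and Dnajb9 were not called without IP_501 (limma, adjusted p = 0.146, 0.0811 and 0.146).

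The same comparison was made in the input of the same animals. There 1 gene passed the adjusted threshold (0.00794%): Slc6a2 fell by 0.91 (SE 0.13, adjusted p = 0.0339). Without adjustment 125 genes were higher (0.992%) and 257 lower (2.04%) at a p under 0.05. Of the 7 genes, Cdkn1a was higher in input by 0.49 (limma, unadjusted p = 0.00905), and the others lay between -0.13 and 0.26. The interaction, the effect in IP minus that in input, was first fitted without a term for the animal, which leaves the pairing out. It passed the adjusted threshold for 1 gene (0.00794%), Sdf2l1 (1.58, adjusted p = 0.00915). In the same fit it passed for 0 genes without hTyr animal IP_502 or EYFP animal IP_512, 2 without hTyr animal IP_501 or IP_508 and 5 without hTyr animal IP_510. With the animal as a replicate block 5 genes passed (0.0397%): Sdf2l1, Ddit3, Creld2, Hmox1 and Tnfrsf12a. Creld2, not called in IP alone, stood at -0.26 in input and at 0.86 in IP, so that the 2 effects differed by 1.12 (adjusted p = 0.0188 with the block, 0.257 without). In the fit without the animal term, 17 of 32 ER chaperones had a larger effect in IP and 0 a smaller one. The p was unadjusted and under 0.05, which 2.19% and 1.12% of all genes reached. For chromatin genes these counts were 0 and 2 of 52.

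**Figure D5:**
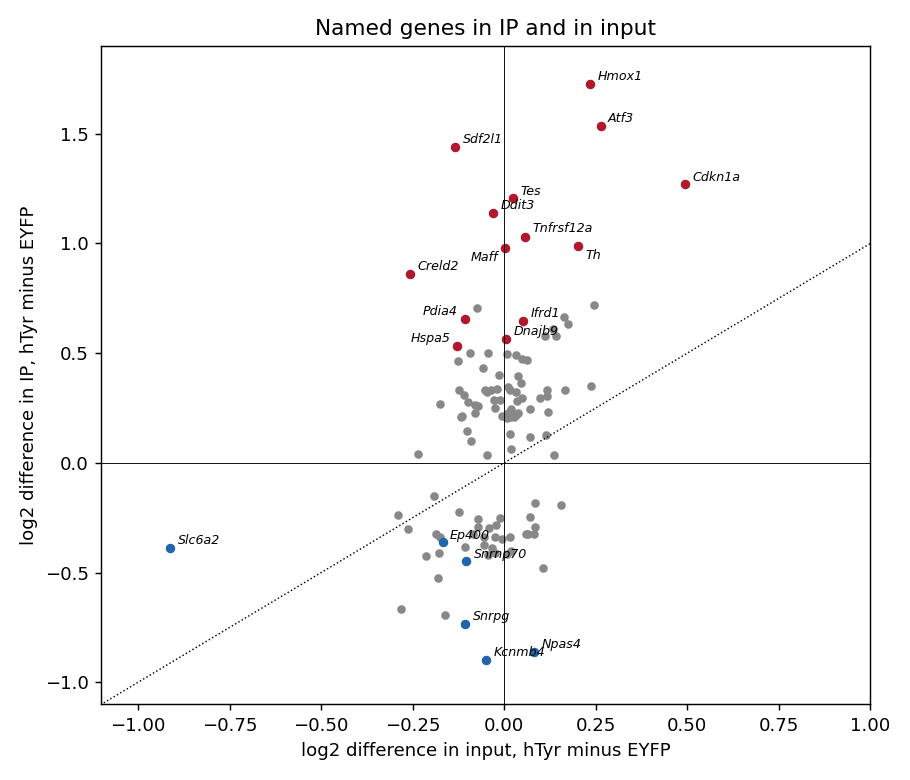
Difference in IP (log2, hTyr minus EYFP, vertical axis) against that in input (horizontal axis) for the named genes, with selected genes labelled in red (higher in IP) or blue (lower in IP), and a dotted line of equal difference. Sdf2l1, Creld2 and Ddit3 are above 0 in IP and below 0 in input, Cdkn1a is higher in both, and Slc6a2 is lower in both.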

How the data were processed

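Per the submitters' processing notes the reads were handled with STAR and featureCounts on mm10; versions, annotation, filter and normalization are not given in the sources used here. The authors deposited log2 values for 12596 genes and 22 libraries, which back-transform to CPM with a pseudocount averaging 2 reads. Back-transformed, 100.0% of values per library fell within 0.01 of a whole read, which gave the depth over the genes of the table. Python 3.11.15 was used for tables.

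The deposited log2 values were tested with limma 3.58.1 in R 4.3.3 (lmFit, eBayes with a mean-variance trend) over the 11 IP libraries, with Benjamini-Hochberg adjustment over all genes and a threshold of 0.05. The difference between the effect in IP and in input was an interaction over 22 libraries, without a term for the animal in the main fit. IP and input are paired by the animal number in the titles: deviations from group means correlated at 0.279 to 0.626 in all 11 animals. Replicates are separate animals by the labels' numbers. On simulated data with 200 of 12596 genes changed, 99% of the genes changed 4-fold were called, as were 89% of those changed 2-fold. False calls were 5.05% of all calls, and there were 0 where no gene had been changed. Whether these rates hold for the deposited data was not tested. In the deposited IP data 27 genes had an absolute difference of at least 1, and 7 genes were called.

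Genes and the 43 lists were chosen with earlier results of these data known. The rule named every called gene, the 20 smallest p, up to 15 non-overlapping genes per direction at an unadjusted p under 0.01 (predicted names left out), up to 4 members per list at an unadjusted p under 0.05, and 23 fixed names. It gave 126 genes, of which 121 are covered. Some items are not reported here. Further list members at an unadjusted p under 0.05, and cerebellar and other regional genes, were named after their values were seen. The lists are described by counts and medians, without a test. Alternatives were another prior variance, 2 normalizations, a level filter that keeps 75% of genes, a pseudocount of 5 CPM, sample weights, a shared spread, covariates, removal of the length and GC trend (12381 genes, 98.3%), voom on recovered reads, the replicate block, and each animal left out. Coordinates and promoter windows are RefSeq's, assembly GRCm38.p6.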

Additional observations from a re-analysis of the deposited data

Results flagged for a closer look

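Among the 242 groups of libraries behind 121 named genes, 6 held a library far from the others, where chance gives 12.1 (about 1 in 20). In hTyr IP these were animal IP_501 for Maff (4.18, next 3.05) and for Nqo1 (3.47, next 3.92). Animal IP_508 stood apart for Mt1 (8.48, next 7.997), and animal IP_510 for Ccng1 (5.52, next 6.06) and Mdm2 (5.70, next 5.89). In EYFP IP it was animal IP_504 for Glrx3 (6.35, next 6.20). For Sdf2l1 the hTyr effect in IP exceeded that in input by 1.58 on the log2 scale (limma interaction, adjusted p = 0.00915), and with the animal as a replicate block it also passed.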

How the results depend on the processing

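The count of called genes (7) became 14 with a spread shared over the 22 libraries, 3 with total reads, 4 with the noradrenergic level and 0 with the cerebellar level as a covariate, and 3 to 11 with an animal left out. The counts at an unadjusted p under 0.05 became 197 higher and 244 lower with the noradrenergic level, 156 and 217 with the cerebellar level, and 236 to 496 higher genes with an animal left out. The other settings kept these counts within 1.5 times. The interaction count (1) became 5 with the replicate block, 5 with the replicate block and the length and GC trend removed, and 0 to 5 with an animal left out. The cause of these moves was not tested. Differences near 0 changed sign. Dbh turned to -0.048 with sample weights, -0.082 with total reads, -0.39 with the noradrenergic level, -0.17 with the cerebellar level and ran from -0.21 to 0.19 with an animal left out. Phox2a turned to -0.21 and Gal to -0.087 with the noradrenergic level, and Phox2a ran from -0.014 to 0.42 with an animal left out. Nqo1 turned to -0.042 with sample weights and -0.00078 with total reads and ran from -0.071 to 0.15 with an animal left out. Mbp turned to -0.063 with the cerebellar level and ran from -0.042 to 0.10, and Cx3cr1 from -0.067 to 0.15, with an animal left out. With the cerebellar level Gad1 turned to 0.037, Car8 to 0.21, Ppp1r17 to 0.29 and Cbln3 to 0.32, the last 3 being part of that level. Arms of 5 and 6 animals limit how small a difference can be called, and genes with few reads, such as Atf3, are the least precise.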

Other observations

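Genes of other brain regions and of the pituitary, picked with their values in view, varied widely between the IP libraries. The pituitary hormone gene Gh ranged from 0.03 to 5.37 log2 CPM in hTyr and from 2.01 to 10.55 in EYFP, and Prl from -0.69 to 6.32 and from 1.07 to 10.39. Pomc was highest in hTyr animal IP_509, at 8.85. The hypothalamic neuropeptide genes Hcrt and Pmch stood at 3.80 and 4.55 in hTyr animal IP_501 and at 4.22 and 4.52 in EYFP animal IP_507, while in EYFP animal IP_506 they stood at -3.21 and -1.15. Ttr, a choroid plexus transcript, stood at 7.30 in hTyr animal IP_501 and 7.33 in EYFP animal IP_504, and between 8.65 and 11.0045 in the others.

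Pcp2, a Purkinje cell marker, stood at -0.56, -0.30, 1.33, 0.62 and -0.25 in hTyr and at 0.84, 2.42 and 4.34 (lowest, median, highest) in EYFP, a difference of -2.39 (SE 0.59, adjusted p = 0.479). The groups overlapped. Car8 (-1.04), Gabra6 (-1.53), Cbln3 (-1.46) and Ppp1r17 (-0.87) were lower too, with EYFP animal IP_506 the highest in each of these 4. Their differences in input were of the same sign, -1.33 for Pcp2, -1.03 for Car8, -1.46 for Gabra6, -1.26 for Cbln3 and -1.07 for Ppp1r17.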
